A study of Mus musculus with 2 samples.

Results

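Zinc finger genes with a symbol of Zfp and a number, such as Zfp57, are one of the large numbered gene families of the mouse. They were taken from the deposited table by symbol: Zfp followed by digits alone, without Zfp42, and at a minimum mean of 5 TPM over the 2 libraries. TPM is a read level divided by transcript length and scaled to the same sum in each library. Of 371 such symbols 216 passed this minimum, out of 51826 listed genes in all. The minimum used the same 2 libraries that are compared here, so the counts and medians over these 216 genes are descriptions.

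Most of these genes encode proteins with rows of C2H2 fingers, each a short fold around a zinc ion that reads a few bases of DNA. Many also carry a KRAB box, a short domain that recruits the scaffold protein Trim28 and, through it, Setdb1 and heterochromatin proteins that silence the bound site. In embryonic stem (ES) cells such KRAB proteins are known for silencing retroelements and for holding DNA methylation at imprinted regions. Others bind RNA, act in the ribosome or ubiquitin pathways, or serve ordinary promoters without KRAB.

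The study sequenced total RNA, depleted of ribosomal RNA, of v6.5 mouse ES cells in 2 libraries. One library was labelled wild-type (WT) and the other T29I, a genotype with a mutation that the series title assigns to the trypsinogen gene PRSS1. The labels give no allele details, clone, passage or culture condition, and the strain label carries a name other than v6.5. Prss1 itself was listed at 0 TPM in both libraries, so its level checks no label. With 1 library per genotype there is no replicate error, and genotype, clone, culture and library preparation cannot be told apart. In bulk RNA, fewer cells of a type and less RNA per cell cannot be told apart either.

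The libraries held an estimated 16909998 reads (WT) and 15281663 reads (T29I) over genes. The median log2 ratio of T29I over WT, on the log2(TPM + 1) scale used throughout, was -0.90 over the 9375 genes whose mean reached 5 TPM. This shift is called the general shift here. The 20 most abundant genes took 16.9% of TPM in WT and 27.0% in T29I. Of 6 ES cell markers 4 (Nanog, Sall4, Lin28a and Dppa4) were at least 2-fold lower in T29I, with a list median of -1.44. Nanog was at 765 TPM in WT and 140.3 TPM in T29I, while Pou5f1 was at 1722 and 1454 TPM and Sox2 at 563 and 355 TPM. Of 7 trophoblast markers 3 (Hand1, Krt8 and Krt18) were at least 2-fold higher in T29I on the log2(TPM + 1) scale. Gata3, at 0.339 TPM in WT and 1.56 TPM in T29I, had a log2 ratio of 0.94. Tfap2c was lower, at 73.4 TPM in WT and 53.1 TPM in T29I. The list's sum was 119 and 876 TPM. Cdx2 and Elf5, which define that lineage, stayed under 1 TPM in both. The sum of 6 feeder fibroblast markers was 6.05 and 19.4 TPM, of which Thy1 made 4.57 and 17.6, with Lum at 0 in both. The sum of 6 primitive endoderm markers was 7.92 and 1.44 TPM, of which Sox7 made 6.02 and 0.184, with the other 5 under 1 TPM in both. The part of these markers in the zinc finger values was not tested.

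The zinc finger genes were lower in the T29I library as a group. Their TPM summed to 8170.2 in WT and to 3504 in T29I, which is 42.9% of the WT sum. The median gene went from 19.9 TPM in WT to 5.18 TPM in T29I. Of the 216 genes, 187 (86.6%) were lower and 29 higher in T29I by any amount, where 71.7% of all 9375 genes were lower. A gene is called lower or higher here at a log2 ratio of at least 1 in size, which is 2-fold on the TPM + 1 scale. By that rule 154 of 216 were lower, where 47.1% of all 9375 genes were, and 7 were higher, where 9.63% were. The median log2 ratio was -1.83 with quartiles at -2.62 and -0.79. Measured from the general shift, 102 were lower against a background of 25.2%, 23 were higher against 25.9%, and the median was -0.93. The minimum of 5 TPM shaped these counts: 214 members reached 5 TPM in WT and 109 in T29I, so 107 passed through the WT library alone. The other 2 of the 216, Zfp444 and Zfp523, passed through the T29I library alone.

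**Figure D1:**
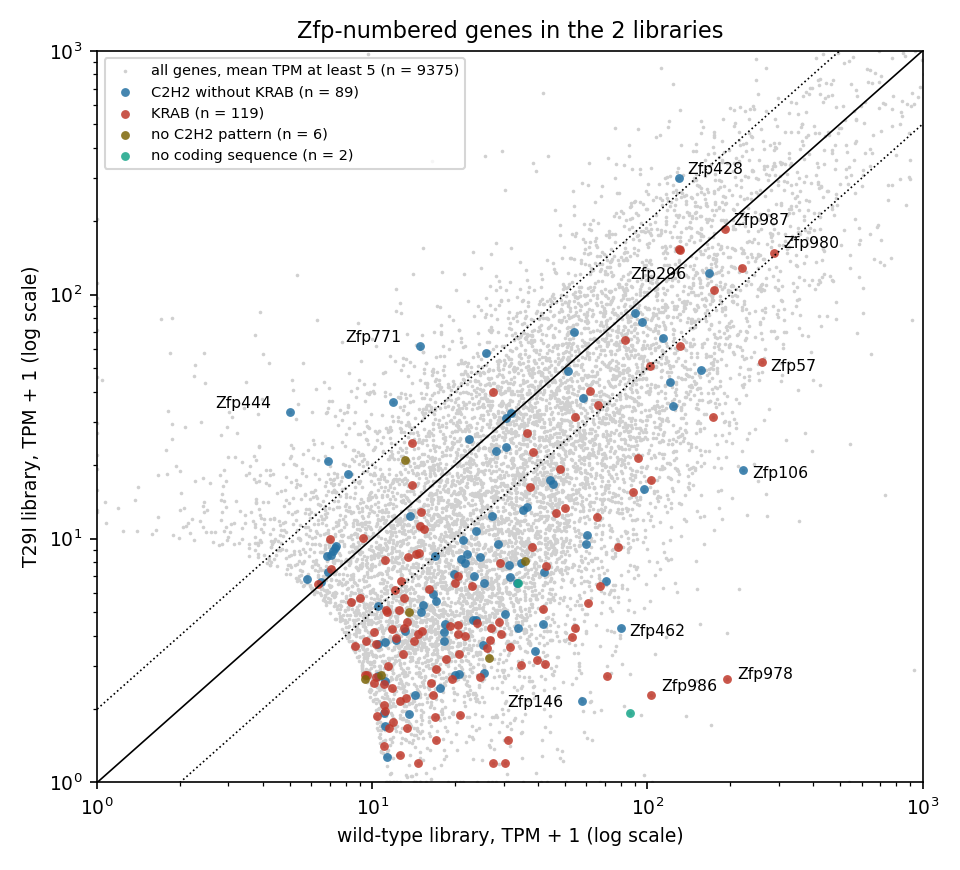
TPM + 1 of each gene in the WT library (x axis, log scale) and the T29I library (y axis, log scale), for all 9375 genes whose mean reached 5 TPM (grey) and the 216 zinc finger genes coloured by protein class; the solid line marks equal levels and the dotted lines 2-fold. Of the coloured points 154 lie on or below the lower dotted line and 7 on or above the upper one.

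Across all genes the log2 ratio followed GC content and transcript length. The Spearman correlation across 9100 protein-coding genes was 0.56 with GC content and -0.53 with the length of the longest annotated transcript, as a description across genes of the same 2 libraries. A fit on both took up 44.9% of the variance. Its residual is called the adjusted log2 ratio, and it also takes away any true difference that goes with length or GC. After adjustment 65 of the 216 genes were at or below -1 against a background of 16%, 21 were at or above 1 against 15.2%, and the median was -0.39. Of the 154 genes called lower as deposited, 64 were still at or below -1 after adjustment and 40 had an adjusted value above 0. Of the 7 called higher, 1 remained, Zfp444. The correlations were weaker across the 216 zinc finger genes, 0.23 with GC content and -0.20 with length. The number of C2H2 fingers correlated at -0.24 over the 214 genes with a coding sequence, and at -0.07 with the adjusted ratio. Across the 216 genes the adjusted ratio correlated at -0.19 with GC content and 0.22 with length. These signs are opposite to those as deposited, so adjusted values within this family are not free of GC content or length.

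By protein class, KRAB genes made up 119 of the 216, C2H2 genes without a detected KRAB box 89, genes with neither pattern 6 (among them Zfp36, whose fingers are of the CCCH type), and genes with no annotated coding sequence 2. The classes were drawn after values had been seen. Of the 119 KRAB genes 88 (73.9%) were called lower, where 47.1% of all genes were, and 0 higher. Their median log2 ratio was -1.94 and their adjusted median was -0.50. Of the 89 C2H2 genes without KRAB 59 (66.3%) were lower and 7 higher, with medians of -1.51 and -0.13. The 7 genes called higher were thus 7.87% of the class without KRAB, where 9.63% of all genes were higher. Above 53.4% GC, where 6 of the 7 lay, 27 genes without KRAB had a median of -0.10 and an adjusted median of -0.31. The 7 KRAB genes there had 0.25 and 0.04. Below 46.9% GC, 100 KRAB genes had a median of -2.08 and an adjusted median of -0.39. The 32 genes without KRAB there had -1.70 and 0.18. Between these bounds, 12 KRAB genes had -2.02 and -1.15, and 30 genes without KRAB -1.98 and -0.54. The 216 were not alone among C2H2 genes. The 165 other genes with at least 3 fingers, taken whatever their symbol, had a median of -1.97, with 127 lower and 3 higher. Their adjusted median was -0.57. Zfp symbols with letters were not kept out of these 165. The 56 other KRAB genes with any C2H2 finger, a set that overlaps the 165, had a median of -2.41, with 50 lower and 0 higher. Their adjusted median was -1.01.

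**Figure D2:**
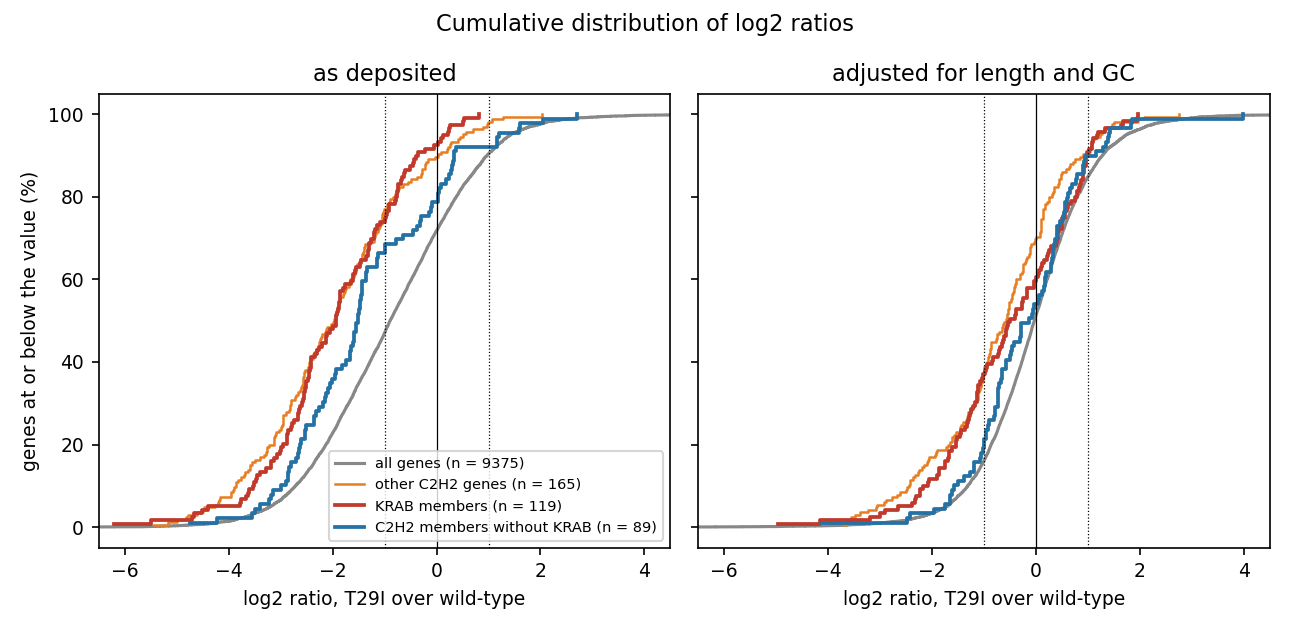
Cumulative share of genes (y axis, %) at or below each log2 ratio of T29I over WT (x axis), as deposited on the left and adjusted for length and GC on the right, for all genes, other C2H2 genes, KRAB members and C2H2 members without KRAB; dotted lines mark -1 and 1. As deposited the KRAB curve lies left of that of all genes, with medians of -1.94 and -0.90, and after adjustment the medians are -0.50 and -0.03.

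The values differed with the base composition of the genes. The 136 zinc finger genes with a transcript GC content below 46.9% had a median log2 ratio of -2.02, with 109 lower (80.1%) and 0 higher. All 3033 coding genes of that range had a median of -1.74, with 74.7% lower and 1.68% higher. The 44 genes between 46.9% and 53.4% GC had a median of -1.98, with 35 lower (79.5%) and 1 higher, where all coding genes of that range had -0.94, with 48.0% lower and 6.10% higher. The 36 genes above 53.4% GC had a median of -0.09, with 10 lower (27.8%) and 6 higher (16.7%), where all coding genes had 0.16, with 17.1% lower and 20.7% higher. The middle range was where the zinc finger genes lay farthest from other coding genes of like GC, and their adjusted median there was -0.69. These GC ranges were chosen after the values had been seen.

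**Figure D3:**
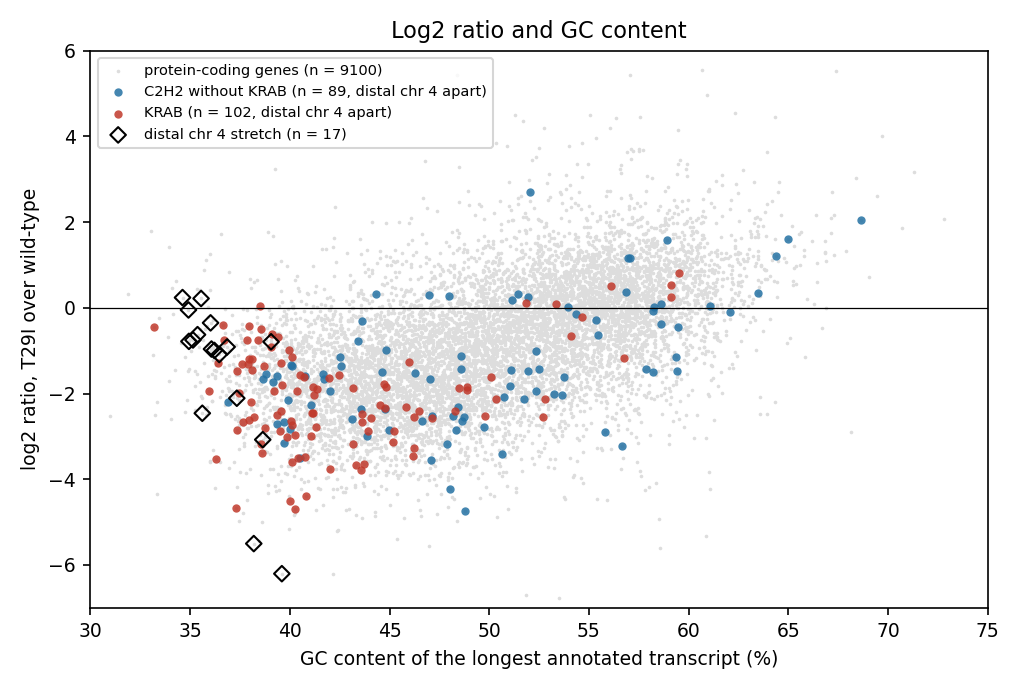
Log2 ratio of T29I over WT (y axis) against GC content of the longest annotated transcript (x axis, %) for 9100 protein-coding genes (grey), C2H2 zinc finger genes without KRAB (blue), KRAB genes (red) and the 17 genes of a stretch on distal chromosome 4 (open diamonds). The cloud of all genes runs upward with GC content, and the diamonds, all below 40% GC, span the range from -6.20 to 0.24.

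Both imprint regulators were called lower in T29I, where 47.1% of all genes were. Zfp57, a KRAB protein that binds methylated imprinting control regions and keeps their methylation, was at 260.1 TPM in WT (95% counting interval 253 to 267) and 51.7 TPM in T29I (48.9 to 54.6), a log2 ratio of -2.31. Zfp57 was the fifth most abundant of the 216 genes by mean TPM. Zfp445, another KRAB protein that guards imprints, was at 53.5 TPM in WT and 3.29 TPM in T29I, a log2 ratio of -3.67. Adjusted for length and GC they stood at -1.24 and -1.54, so both stayed past -1, where 16% of all genes were at or below it. These exact Poisson intervals cover counting error only, not differences between cultures or libraries.

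KRAB genes with a known retroelement or Igf2 role were lower too, with 1 at the edge. Of 4 retroelement members 3 were called lower, where 47.1% of all genes were. After adjustment 3 were lower, against 16% of all genes. Zfp809, which silences murine leukaemia virus in ES cells through its primer binding site, was at 30.7 TPM in WT and 2.61 TPM in T29I, with an adjusted log2 ratio of -2.24. Zfp932, a repressor of endogenous retroviruses, was at 28.4 and 3.05 TPM, and Zfp819, which restrains retroelements in ES cells, at 22.1 and 5.40 TPM. Their adjusted values were -1.28 and -1.13. Zfp600, a KRAB gene of the distal chromosome 4 stretch, was at 100.98 and 50.2 TPM, a log2 ratio of -0.99 that missed the size rule, and its adjusted value was 0.98. Zfp708, the other listed retroelement gene, was at 0.804 and 0 TPM and not a member. Zfp568, which represses the placental promoter of Igf2, was at 102 TPM in WT and 16.3 TPM in T29I, a log2 ratio of -2.58 and an adjusted value of -0.50.

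Of 8 listed ES cell regulators 7 were members, and 5 of those were called lower, where 47.1% of all genes were, and 0 higher. After adjustment 3 of the 7 were lower, against 16% of all genes. Zfp281, a pluripotency-network factor, was at 95.8 TPM in WT and 15.0 TPM in T29I. Zfp143, an architectural promoter factor, was at 32.5 and 5.56 TPM, and Zfp217, which binds the Lsd1 and CoREST repressors, at 33.7 and 6.93 TPM. Zfp462, which recruits the H3K9 methyltransferases Ehmt1 and Ehmt2 to hold lineage genes silent, was at 79.3 TPM in WT (77.0 to 81.7) and 3.31 TPM in T29I (2.90 to 3.76). That log2 ratio of -4.22 was the ninth lowest of the 216, with an adjusted value of -1.50. Zfp207, a spindle and splicing factor, was at 155 and 48.3 TPM. The remaining pair missed the size rule: Zfp706, needed for exit from self-renewal, was at 113 and 65.7 TPM, and Zfp296, a reprogramming factor, at 167 and 122 TPM. Zfp296 had a log2 ratio of -0.46 as deposited and -1.38 after adjustment, with a GC content of 59.5%. Zfp521 was under 1 TPM in both libraries and not a member.

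**Figure D4:**
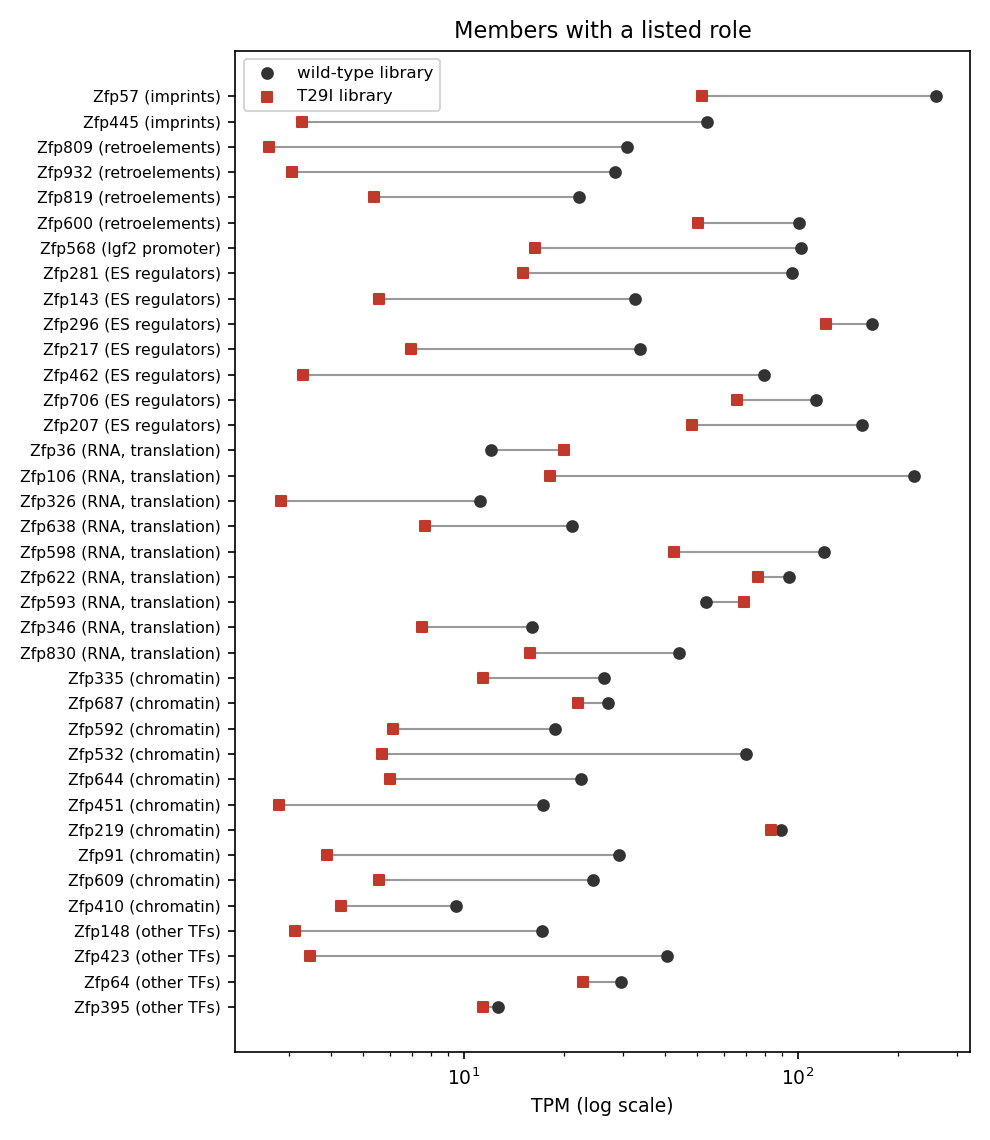
TPM (x axis, log scale) in the WT library (black circles) and the T29I library (red squares) for zinc finger genes with a listed role, 1 row per gene, joined by a grey line. Most red squares lie left of the black circle; Zfp36 and Zfp593 lie to the right, at 12.1 and 19.9 TPM and at 53.1 and 69.2 TPM.

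Members that act on RNA or in translation split between large and small differences. Of 10 listed genes 6 were lower, where 47.1% of all genes were, and 0 higher. Relative to the general shift 1 was lower, against 25.2% of all genes, and 2 higher, against 25.9%. After adjustment 2 were lower, against 16%, and 3 higher, against 15.2%, with a median of -0.04. Zfp106, an RNA-binding protein needed in motor neurons and muscle, was at 222 TPM in WT (218 to 226) and 18.1 TPM in T29I (17.1 to 19.1), a log2 ratio of -3.55. Zfp598, the ubiquitin ligase that marks collided ribosomes, was at 119.7 and 42.7 TPM, with an adjusted value of -1.58. Zfp830, a splicing and DNA damage factor, was at 44.2 and 15.8 TPM. Zfp326, of the complex that links transcription to splicing, was at 11.2 and 2.83 TPM, and Zfp638, which silences unintegrated retroviral DNA, at 21.1 and 7.65 TPM. Both of these long, GC-poor genes had adjusted values above 0, of 0.33 and 1.42. The 60S ribosomal subunit maturation factors differed little: Zfp622 was at 94.4 and 75.9 TPM and Zfp593 at 53.1 and 69.2 TPM. Zfp346, which binds double-stranded RNA, was at 15.96 and 7.503 TPM, a log2 ratio of -0.996 just short of the rule. Zfp36, tristetraprolin, which targets AU-rich mRNAs for decay, was at 12.1 and 19.9 TPM, a log2 ratio of 0.68.

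Of 14 listed chromatin and ubiquitin genes 12 were members, and 8 of those were lower, where 47.1% of all genes were, and 0 higher. After adjustment 3 of the 12 (25%) were lower, against 16% of all genes. The list counts Zfp462 and Zfp296 again. Zfp532, Zfp592 and Zfp687 belong to a chromatin complex with Zmynd8, and their values differed from one another: Zfp532 was at 69.8 and 5.69 TPM, Zfp592 at 18.8 and 6.13 TPM, and Zfp687 at 27.1 and 21.9 TPM. Zfp644, a partner of Ehmt1 and Ehmt2, was at 22.4 and 6.02 TPM, and Zfp451, a SUMO ligase, at 17.2 and 2.79 TPM. Zfp91, a ubiquitin ligase, was at 29.2 and 3.89 TPM, and Zfp609, a partner of the cohesin loader, at 24.4 and 5.57 TPM. Zfp335, a subunit of an H3K4 methyltransferase assembly, was at 26.3 and 11.4 TPM. Zfp410, the activator of Chd4, was at 9.49 and 4.28 TPM, a log2 ratio of -0.99, and Zfp219 stood nearly level at 89.2 and 83.0 TPM. Zfp827 and Zfp711 were below the 5 TPM mean.

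Of 6 further sequence-specific regulators 4 were members, with 2 lower, where 47.1% of all genes were, and 0 higher. Zfp423, a partner of Ebf and Smad proteins, was at 40.6 TPM in WT and 3.45 TPM in T29I, a log2 ratio of -3.22 and an adjusted value of -2.47. Zfp148, a GC-box factor, was at 17.2 and 3.12 TPM, yet its adjusted value was 0.77. Zfp64, a regulator of the Mll gene, was at 29.6 and 22.7 TPM and Zfp395 at 12.7 and 11.4 TPM, both short of the rule.

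The machinery that KRAB proteins recruit, listed here together with other silencing and H3.3 genes, differed from gene to gene. Of 21 listed genes, none of them a Zfp gene, 12 (57.1%) were lower, where 47.1% of all genes were, and 0 higher, with a median of -2.05. After adjustment 2 were lower, against 16% of all genes, and 1 higher, against 15.2%, with a median of -0.12. Trim28, the scaffold that KRAB boxes bind, was at 1781 TPM in WT and 1542 TPM in T29I, a log2 ratio of -0.21. Setdb1, its H3K9 methyltransferase, was at 95.4 and 14.5 TPM, and Atf7ip, which stabilises Setdb1, at 42.4 and 10.1 TPM. In the HUSH silencing complex Mphosph8 was at 108 and 7.05 TPM, Fam208a at 60.5 and 12.1 TPM, and Pphln1 at 33.2 and 16.4 TPM. Mphosph8 had the lowest adjusted value of the list, -2.36. The heterochromatin proteins differed, with Cbx5 at 129.7 and 12.9 TPM, Cbx1 at 198 and 103 TPM and Cbx3 at 139 and 79.1 TPM. Ehmt1 was at 36.7 and 5.32 TPM, while its partner Ehmt2 was at 84.5 and 113 TPM. Suv39h2 was at 25.5 and 4.84 TPM and Suv39h1 at 11.3 and 10.4 TPM. The ATPases Morc2a and Morc3 were at 79.2 and 13.6 and at 104 and 21.0 TPM, and the remodeller Smarcad1 at 55.7 and 11.98 TPM. Of the H3.3 pathway, Atrx was at 75.2 and 14.0 TPM, Daxx at 92.8 and 54.2 TPM, and the H3.3 genes H3f3a and H3f3b at 428 and 278 and at 485 and 584 TPM. Dnmt1, the maintenance methyltransferase, was at 183 and 43.4 TPM.

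A stretch of 2.30 Mb on distal chromosome 4 held Zfp980, the most abundant KRAB gene by mean TPM, and the widest spread. In GENCODE M21 (GRCm38) it spans chr4:145510759-147809788 and contains 17 members in the order Zfp990 to Zfp984, all of the KRAB class. They made up 27.7% of the TPM of the 216 genes in WT and 34.5% in T29I. Their TPM summed to 2261 in WT and 1208 in T29I, or 53.4%. The 102 KRAB genes elsewhere summed to 2509 and 584 TPM, or 23.3%. Of the 17, 6 (35.3%) were lower, where 47.1% of all genes were, and 0 higher. Their median log2 ratio was -0.91, close to the general shift, and their adjusted median was 0.97. The 102 KRAB genes elsewhere had a median of -2.08 and an adjusted median of -0.59. No test of this difference was possible with 1 library per group. The 17 genes share sequence: in the median gene 72.6% of the 50-base stretches of the longest transcript also occur in another gene. The sources used here do not say how reads that fit several copies were counted, so single values in this stretch are uncertain.

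Neighbours within the stretch stood at opposite ends. Zfp978, with 14 estimated reads in T29I, was at 194 TPM in WT (184 to 205) and 1.65 TPM in T29I (0.900 to 2.76), the lowest log2 ratio of all 216 genes at -6.20. Zfp986 followed at 102 TPM (94.8 to 109) and 1.27 TPM (0.658 to 2.22), a log2 ratio of -5.50. At the other end Zfp979 was at 129.6 TPM in WT and 153 TPM in T29I, Zfp981 at 130.05 and 152 TPM, and Zfp987 at 191 and 184 TPM. These 3 were 1.18-fold and 1.17-fold higher and 1.03-fold lower in T29I. Zfp980, the most abundant of the 216 genes by mean, was at 289 and 148 TPM, Zfp534 at 219.8 and 127 TPM, and Zfp988 at 174 and 103 TPM. Zfp990 was at 172 and 30.6 TPM, Zfp989 at 91.1 and 20.4 TPM, and Zfp984 at 130.0 and 60.6 TPM, all called lower. Zfp992, Zfp993 and Zfp991 lay between 53.3 and 65.1 TPM in WT and between 30.4 and 39.1 TPM in T29I. The 2 genes of the stretch that share least with other genes differed as well: Zfp982, with 11.47% of its stretches shared, was at 76.9 and 8.24 TPM, and its neighbour Zfp985, with 15.7% shared, at 81.8 and 64.0 TPM.

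**Figure D5:**
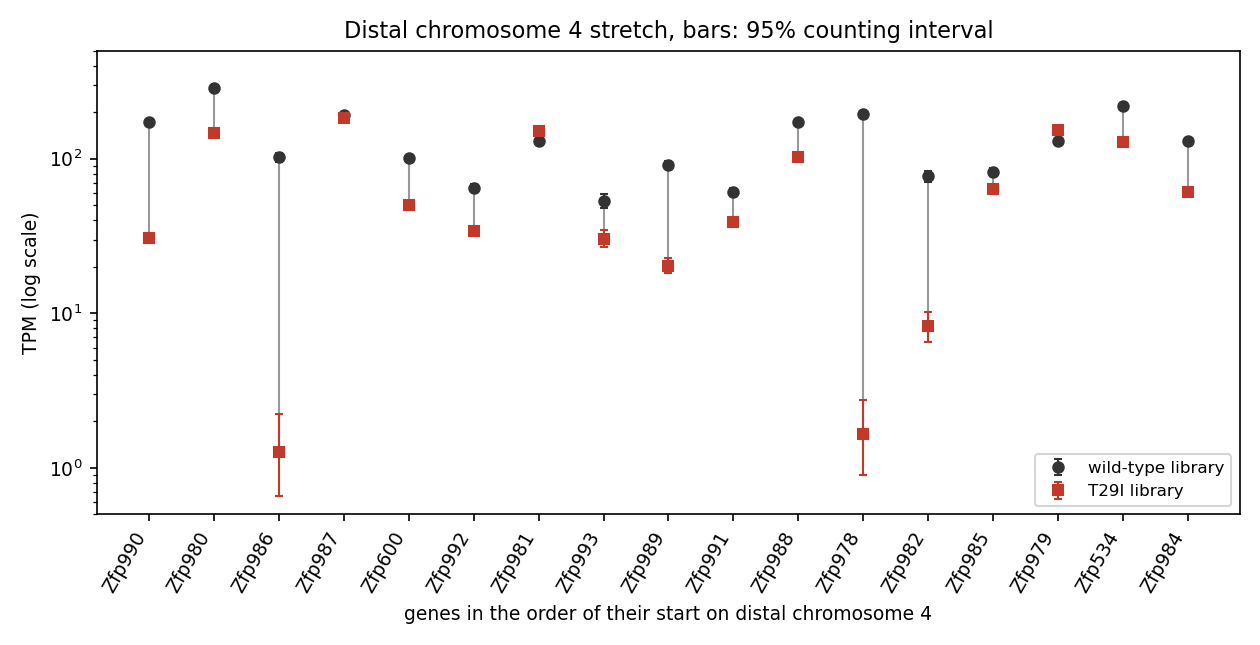
TPM (y axis, log scale) in the WT library (black circles) and the T29I library (red squares) of the 17 KRAB genes on distal chromosome 4, in the order of their start; bars are 95% exact Poisson counting intervals of the estimated reads. Zfp978 and Zfp986 are at 194 and 102 TPM in WT and at 1.65 and 1.27 TPM in T29I, while Zfp987, Zfp981 and Zfp979 have both symbols close together.

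The promoters of most of these genes are alike, and 1 gene with such a promoter stood apart in its log2 ratio. RefSeq promoters (GRCm38.p6) were found for 11 of the 17 genes, and 9 of these start within 500 bases of the gene's start of transcription in GENCODE. Zfp978 and Zfp986, the lowest of the stretch, are not among the 9. Over windows from 250 bases before to 50 after the start, the 36 pairs among the 9 were between 81.1% and 98.8% identical over aligned bases, with a median of 92%. All 9 hold the 15 letters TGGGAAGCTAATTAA, the longest run common to them, which on either strand occurs in 12 of 32851 promoter windows of the same length, or 0.0365%, and in 0 of the other members' windows. The run was picked from these 9 and is a description, not a binding site. Shown in capitals below are these letters in the 250 bases before the start of 4 genes, chosen to set the pair Zfp982 and Zfp985 beside Zfp979 and Zfp987, which were near level. They lie at chr4:147492167-147492416 and chr4:147553027-147553276 and chr4:146097062-146097311 on the plus strand and at chr4:147642509-147642758 on the minus strand, each written 5′ to 3′ on its own strand.
Zfp982: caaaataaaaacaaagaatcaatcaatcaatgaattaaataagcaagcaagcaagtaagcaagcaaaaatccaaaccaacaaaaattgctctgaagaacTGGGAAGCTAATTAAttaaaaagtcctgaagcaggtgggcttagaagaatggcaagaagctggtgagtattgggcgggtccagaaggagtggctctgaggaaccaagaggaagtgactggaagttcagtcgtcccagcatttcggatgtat
Zfp985: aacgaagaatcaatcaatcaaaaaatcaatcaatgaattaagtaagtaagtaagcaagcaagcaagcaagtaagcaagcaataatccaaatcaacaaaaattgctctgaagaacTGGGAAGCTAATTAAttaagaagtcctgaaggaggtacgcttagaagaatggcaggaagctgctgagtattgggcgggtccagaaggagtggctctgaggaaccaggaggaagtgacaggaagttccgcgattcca
Zfp987: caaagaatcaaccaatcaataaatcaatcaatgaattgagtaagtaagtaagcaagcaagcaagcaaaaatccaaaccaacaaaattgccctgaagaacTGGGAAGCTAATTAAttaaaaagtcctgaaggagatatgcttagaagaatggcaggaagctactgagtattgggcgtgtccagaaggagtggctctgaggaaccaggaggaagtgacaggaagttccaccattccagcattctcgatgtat
Zfp979: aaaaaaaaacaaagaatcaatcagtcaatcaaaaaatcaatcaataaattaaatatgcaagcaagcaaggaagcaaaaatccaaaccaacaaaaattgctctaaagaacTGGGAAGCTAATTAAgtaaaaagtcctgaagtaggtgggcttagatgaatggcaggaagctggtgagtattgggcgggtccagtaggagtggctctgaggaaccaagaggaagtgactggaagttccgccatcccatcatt
Of the 9 genes 8 had log2 ratios between -1.09 and 0.24, and Zfp982 stood apart at -3.08. Zfp979 and Zfp982 were identical at 269 of 283 aligned bases (95.05%), while their log2 ratios were 0.24 and -3.08. Zfp982 and Zfp985 were identical at 262 of 283 (92.6%), with log2 ratios of -3.08 and -0.35. Whether the remaining base differences go with the levels was not tested.

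Elsewhere in the genome, 14 stretches of at least 4 members, each within 1 Mb of the next, held 90 of the 216 genes. In several of them every member was lower. On chromosome 7, the 9 genes from Zfp84 to Zfp146 (chr7:29768552-30169750) summed to 302 TPM in WT and 45.2 TPM in T29I, and the 9 from Zfp788 to Zfp819 (chr7:41633203-43618285) to 257 and 27.4 TPM. All 18 were called lower, where 47.1% of all genes were, with medians of -2.48 and -2.62. After adjustment 6 of the first 9 and 5 of the second 9 were lower, against 16% of all genes. Their adjusted medians were -1.08 and -1.13. The stretch from Zfp930 to Zfp866 on chromosome 8 had 4 of 4 lower, with a median of -3.06. After adjustment 3 of the 4 were lower, while Zfp930 was at 0.45. On distal chromosome 2 the 5 genes from Zfp966 to Zfp931 (chr2:175918881-178078476) summed to 98.1 and 9.03 TPM. Zfp966, Zfp973, Zfp970 and Zfp971 were each under 1 TPM in T29I, at 0.203, 0.671, 0.488 and 0.494 TPM. In WT they were at 29.4, 12.4, 30.2 and 15.99 TPM. Their estimated reads in T29I were 4, 12, 7 and 7. They share 89.6%, 88.7%, 57.2% and 42.4% of their 50-base stretches with other genes, so their single values are uncertain too. The last gene, Zfp931, was at 10.1 and 7.18 TPM.

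Other stretches were mostly lower, mixed or level. On chromosome 17 the 16 genes from Zfp160 to Zfp13 summed to 227 and 123 TPM. Of these 16, 10 (62.5%) were lower, where 47.1% of all genes were, and 0 higher. The adjusted median of this stretch was 0.34. At one end of it Zfp213 was at 12.9 and 23.6 TPM and Zfp13 at 26.5 and 38.8 TPM, while Zfp229 was at 25.7 and 2.83 TPM. Of the 7 genes from Zfp871 to Zfp414 on the same chromosome, 6 were lower and 1 higher, where 47.1% and 9.63% of all genes were. Their median was -1.64 and their adjusted median 0.38. Zfp871 was at 26.4 and 0.197 TPM and Zfp414, the 1 called higher, at 24.8 and 56.8 TPM. The 4 genes from Zfp212 to Zfp746 on chromosome 6 had log2 ratios from -0.22 to 0.50, with sums of 38.5 and 41.97 TPM and 0 called. The 7 from Zfp553 to Zfp646 on chromosome 7 summed to 134 and 142 TPM, from Zfp771 at 13.9 and 60.5 TPM to Zfp747 at 18.2 and 3.38 TPM. In the 5 genes from Zfp180 to Zfp574, Zfp428 alone held 129.6 of 203 TPM in WT and 299 of 336 TPM in T29I. Called lower were 4 of 5 genes from Zfp60 to Zfp36, 4 of 5 from Zfp41 to Zfp647 and 4 of 6 from Zfp640 to Zfp273. From Zfp433 to Zfp938 and from Zfp787 to Zfp418 it was 2 of 4 each, with Zfp444 higher in the latter.

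The lowest log2 ratios after Zfp978 and Zfp986 spread over several chromosomes and classes. Zfp640, annotated without a coding sequence, was at 85.1 TPM in WT and 0.934 TPM in T29I. Zfp146, with 10 fingers and no KRAB box, was at 56.8 TPM (53.3 to 60.5) and 1.17 TPM (0.749 to 1.71), and Zfp141 at 70.1 and 1.74 TPM. Zfp966, Zfp871, Zfp970, Zfp462 and Zfp59 completed the lowest 10, Zfp59 at 41.5 and 2.07 TPM. All 10 had adjusted values below -1, from -1.45 for Zfp871 to -4.95 for Zfp978. Estimated reads in T29I were few in this group, from 4 for Zfp966 to 234 for Zfp462, which widens the counting interval of the ratio (56.3 to 535-fold lower for Zfp966). Of the 100 genes with the lowest log2 ratio among all 9375, 8 were Zfp members, which make up 2.30% of those genes.

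Of the 7 genes called higher, 6 had a GC content above 53.4%. Zfp444 was at 4.04 TPM in WT (3.36 to 4.82) and 32.0 TPM in T29I (30.2 to 33.8), 7.91-fold higher with a counting interval of 6.58 to 9.59. Its transcript has 52.0% GC and a length of 5104 bases, and its adjusted value of 3.98 was the highest of the 216 genes. Zfp771, with 68.7% GC, was at 13.9 and 60.5 TPM, and Zfp580, with 65.0% GC, at 10.9 and 35.4 TPM. Their adjusted values were -0.50 and -0.47. Zfp428, the second most abundant of the 216 genes by mean and the most abundant in T29I, was at 129.6 TPM in WT (121 to 138) and 299 TPM in T29I (288 to 311), with 64.4% GC and an adjusted value of -0.72. Zfp524 was at 5.90 and 19.7 TPM, Zfp414 at 24.8 and 56.8 TPM and Zfp358 at 7.14 and 17.3 TPM, with adjusted values of 0.63, 0.61 and 0.91. Zfp524 and Zfp414 share 46.0% and 43.9% of their 50-base stretches with the predicted genes Gm44973 and Gm20507.

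Promoters of the highest and lowest members are shown for their CG content, since CG-rich promoters mark broadly used genes. They are the 2 highest and the 2 lowest log2 ratios among members with a matched RefSeq promoter outside the distal chromosome 4 stretch, each as the 250 bases before the start, 5′ to 3′, with every CG in capitals. Zfp444 lies at chr7:6172263-6172512 and Zfp771 at chr7:127244276-127244525 on the plus strand, and Zfp141 at chr7:42505754-42506003 and Zfp146 at chr7:30169742-30169991 on the minus strand.
Zfp444: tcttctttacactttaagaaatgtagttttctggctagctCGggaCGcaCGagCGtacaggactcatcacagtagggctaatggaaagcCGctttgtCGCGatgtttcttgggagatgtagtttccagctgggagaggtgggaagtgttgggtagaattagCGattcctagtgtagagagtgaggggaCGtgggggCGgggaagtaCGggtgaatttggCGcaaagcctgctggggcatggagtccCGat
Zfp771: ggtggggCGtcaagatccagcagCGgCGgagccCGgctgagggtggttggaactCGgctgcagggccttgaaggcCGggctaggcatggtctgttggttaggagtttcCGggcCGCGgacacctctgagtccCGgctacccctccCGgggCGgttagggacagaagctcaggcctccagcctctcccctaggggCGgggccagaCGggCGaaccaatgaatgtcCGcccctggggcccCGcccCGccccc
Zfp141: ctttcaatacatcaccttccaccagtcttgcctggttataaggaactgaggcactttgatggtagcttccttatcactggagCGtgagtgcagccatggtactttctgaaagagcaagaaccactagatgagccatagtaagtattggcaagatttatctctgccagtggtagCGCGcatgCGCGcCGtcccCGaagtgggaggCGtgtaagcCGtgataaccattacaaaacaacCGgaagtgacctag
Zfp146: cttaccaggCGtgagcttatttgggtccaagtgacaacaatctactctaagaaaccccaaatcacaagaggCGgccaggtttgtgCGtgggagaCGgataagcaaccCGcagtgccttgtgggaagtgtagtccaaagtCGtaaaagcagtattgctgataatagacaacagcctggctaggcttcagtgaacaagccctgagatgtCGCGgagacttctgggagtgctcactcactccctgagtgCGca
These hold 13, 18, 10 and 9 CG pairs in that order. Over windows of 300 bases the median count was 13 in the 157 members with a matched promoter and 7 in all 32851 promoters. It was 19 in the 6 of them called higher, 13 in the 111 called lower, and 5 in the 9 of the distal chromosome 4 stretch, where it ran from 3 to 9.

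The 155 Zfp genes under the minimum included 10 at 0 in both libraries. Of the other 145, 128 (88.3%) were lower and 17 higher in T29I by any amount, where 69.5% of all genes detected below a mean of 5 TPM were lower. Just inside the minimum by mean TPM were Zfp839 at 8.43 and 1.66 TPM, Zfp39 at 8.37 and 1.75 TPM and Zfp93 at 7.64 and 2.62 TPM. Just outside were Zfp526 at 6.61 and 3.31 TPM, Zfp386 at 7.21 and 2.64 TPM and Zfp946 at 6.82 and 2.98 TPM. All 6 were lower in T29I. By sequence sharing, the 175 members with under 20% of 50-base stretches shared had a median log2 ratio of -1.85, and the 41 with more had -1.46.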

How the data were processed

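RNA was measured in 2 libraries of mouse ES cells, 1 per genotype. Isogen was used for extraction and a stranded total RNA kit with ribosomal depletion for the libraries, per the labels' protocols. The authors deposited 1 table of TPM per gene and library. The sources used here do not give the aligner, counting tool, genome build or read length. Columns were matched to samples through the sample descriptions.

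Log2 ratios used log2(TPM + 1), so differences of low genes are understated, and a gene was called where the log2 ratio reached 1 in size. No p-value was computed, since 1 library per group leaves no spread. The general shift was the median over genes whose mean reached 5 TPM. The adjusted ratio was the residual of a fit with squared and interaction terms on log2 length and GC of the longest transcript, over 9100 coding genes. Annotation came from GENCODE M21, to which 51633 of 51826 identifiers matched. TPM times merged exon length fell on whole multiples of 1 read, within 0.05, for 81.0% (WT) and 79.9% (T29I) of values, which gave estimated reads, 95% exact Poisson intervals of TPM and exact binomial intervals of folds. They cover counting error only. Only the size of 1 read and the length and GC adjustment were tested on simulated data. Those data held whole read counts and a straight-line trend with log2 length and GC, which is simpler than the deposited values.

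C2H2 fingers were counted by pattern in translated coding sequences, and KRAB boxes were found with a profile of 93 seed windows (pyhmmer 0.12.3, E-value up to 0.001). A simpler KRAB pattern was tried first and replaced, with class medians already seen, because it missed known KRAB genes; diverged boxes may still be missed. Python 3.11.15, pandas 2.3.3, scipy 1.17.1 and Biopython 1.88 were used.

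Members and gene lists were chosen with earlier results of these data known. Named genes were the 10 with the highest mean TPM, the 10 lowest and 10 highest log2 ratios, members of the role lists and of stretches of at least 4 members within 1 Mb, the 3 on either side of the 5 TPM minimum, and the co-repressor list. GC ranges, the comparison with other C2H2 genes, sequence sharing and the promoter searches were chosen after the data were seen. Alternatives were another pseudocount, 4 scalings or adjustments, 3 mean filters and 2 subsets of members.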

Additional observations from a re-analysis of the deposited data

How the results depend on the processing

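No paired analysis was possible because each genotype has 1 library. The main values were 154 lower, 7 higher and a median of -1.83. With the general shift subtracted these became 102, 23 and -0.93, and with the length and GC adjustment 65, 21 and -0.39. Upper-quartile scaling gave 15 higher and a median of -1.15, a pseudocount of 0.1 a median of -1.998, no mean filter a median of -1.44 over 361 genes, and a mean of at least 10 TPM 97 lower of 140 genes. The other planned counts stayed within 1.5 times the main ones, and the other planned medians were -1.71, -1.61 and -1.87. Both subsets added after seeing the data stayed as close: without the distal chromosome 4 stretch 148 were lower and 7 higher with a median of -1.86, and among the 175 members sharing under 20% of 50-base stretches 130 were lower and 5 higher. Subtracting the shift moves every gene by the same amount, and fewer genes enter under the stricter filter; for the others the cause was not tested.

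The shift and scaling alternatives move all genes by less than the call size, so no called gene could change sign under them. Of 145 named members the length and GC adjustment reversed 26, with these adjusted log2 ratios: Zfp148 0.77, Zfp260 0.17, Zfp326 0.33, Zfp41 1.16, Zfp428 -0.72, Zfp451 0.93, Zfp580 -0.47, Zfp592 0.36, Zfp626 0.13, Zfp638 1.42, Zfp644 0.56, Zfp719 0.23, Zfp748 0.94, Zfp763 0.38, Zfp771 -0.50, Zfp781 0.42, Zfp799 0.51, Zfp81 0.42, Zfp820 0.57, Zfp93 0.068, Zfp930 0.45, Zfp942 0.26, Zfp944 0.21, Zfp945 0.50, Zfp984 0.57 and Zfp994 0.86. The adjustment rests on the longest annotated transcript, which need not be the one expressed.

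With 1 library per group no statement here can be set against replicate error. Few estimated reads in T29I limit the lowest genes, and shared sequence limits single genes of copied stretches.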
